A study of Mus musculus with 8 samples.

Results

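The genes of the cytosolic ribosomal proteins were followed through the cell classes of the mouse liver, with and without β-glucan (BG), a yeast-derived polysaccharide that is recognised by receptors on leukocytes. Members were all gene symbols that begin with Rps or Rpl and a digit, plus Rpsa, Rplp0, Rplp1 and Rplp2, without the Rps6 kinases and without pseudogenes marked as such. This rule took 86 of the 32285 genes in the count matrices: 33 counted as small-subunit genes and 52 as large-subunit genes by name alone, and Rps19bp1, whose product binds a ribosomal protein but is not itself part of the ribosome. The rule itself uses names only. All 86 were matched by Ensembl ID to protein-coding genes of the GENCODE vM21 annotation (GRCm38, the same assembly as mm10), on 19 chromosomes.

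The 8 libraries came from livers of C57BL/6J females at 9 weeks of age, 1 mouse each: 4 Control mice (replicates 1 to 4) and 4 mice that received 1.2 mg of BG (odetiglucan, Imprime PGG) intravenously (replicates 5 to 8), harvested on day 2. CD45+ leukocytes were combined with cells recovered by density gradient from the CD45-depleted fraction to enrich for Kupffer cells, so the mix of cell types is not that of the intact liver. In all, 48465 cells were kept, 4330 to 7790 per library, with a median of 2322 to 3590 unique molecular identifiers (UMIs, each standing for 1 captured transcript) per cell. Members supplied 19.7% to 22.1% of the UMIs in kept cells of each library.

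Ribosomal proteins are made in step with each other, since every ribosome needs a single copy of nearly all of them. Their messenger RNAs are short, abundant and stable, and most begin with a run of pyrimidines, the terminal oligopyrimidine (TOP) tract, through which mTORC1 signaling controls their translation. Resting naive lymphocytes hold much of their small transcriptome in these messages, while activated lymphocytes build new ribosomes before they divide. Because TOP messages are regulated at translation, their level in a cell is not a measure of protein synthesis.

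The start regions of the leading genes are shown because the TOP tract lies there. RefSeq start regions (GRCm38.p6) were at hand for 66 of the 86 members. Each line gives bases from 30 before the annotated start to 20 after it, 5′ to 3′ on the strand of the gene, and capitals mark the pyrimidine motif CTTTC where it was found. The first 4 genes led the higher calls in NK-like cells and the next 4 were among the lower calls in BMDM-like cells, both described further on, and the last 2 are a paralog pair.
Rpl36a (chrX:134585624-134585673, + strand): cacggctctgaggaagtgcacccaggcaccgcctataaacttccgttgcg
Rps26 (chr10:128626487-128626536, - strand): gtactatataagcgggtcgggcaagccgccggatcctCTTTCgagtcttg
Rpl31 (chr1:39367821-39367870, + strand): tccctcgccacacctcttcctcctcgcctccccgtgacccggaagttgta
Rps2 (chr17:24720033-24720082, + strand): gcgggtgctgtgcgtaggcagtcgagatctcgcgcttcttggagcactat
Rps3a1 (chr3:86142649-86142698, - strand): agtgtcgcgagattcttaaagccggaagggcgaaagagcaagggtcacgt
Rpl10 (chrX:74270786-74270835, + strand): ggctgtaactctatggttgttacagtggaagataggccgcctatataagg
Rpl15 (chr14:18270967-18271016, - strand): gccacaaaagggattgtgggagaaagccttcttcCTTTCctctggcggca
Rpl14 (chr9:120571487-120571536, + strand): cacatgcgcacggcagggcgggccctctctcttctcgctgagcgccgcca
Rps27 (chr3:90213629-90213678, - strand): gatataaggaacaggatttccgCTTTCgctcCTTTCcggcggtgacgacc
Rps27l (chr9:66946056-66946105, + strand): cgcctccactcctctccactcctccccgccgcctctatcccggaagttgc

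CTTTC stood on the gene's strand in this window in 20 of 66 members (30.3%) and in 2161 of all 27025 genes with a start region (8.0%). It was present in Rps26, Rpl15 and Rps27 and absent from the window of the other 7 genes shown. CTTTC is a single pyrimidine motif, so its absence does not mean that a TOP tract is missing. The window of Rpl14, without CTTTC, holds an unbroken run of pyrimidines across the annotated start. The motif CCGGAAG, searched on both strands of the whole 300 bases (250 before to 50 after the start), was present in 26 members (39.4%) and in 9.93% of all genes. Among the called members described further on, CTTTC was found in 3 of 9 genes with a start region that were higher in NK-like cells and in 1 of 6 that were lower in BMDM-like cells. These matches describe the windows only, and annotated starts may lie some bases away from the starts used in these cells.

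Cells were assigned to classes by the number of distinct marker genes with a UMI, and a class was named "X-like" after its markers. Macrophages were divided into KC-like cells (Kupffer cells, the resident liver macrophages, with Clec4f, Vsig4 and Timd4 among 12 markers) and BMDM-like cells (bone marrow derived, with Ly6c2, Ccr2 and Lyz2 among 14 markers). In NK-like cells, whose 12 markers include Ncr1 and Eomes and which had no UMI of Cd3e, Cd3d or Cd3g, a median of 6 to 7 markers was detected per library, and in BMDM-like cells 7 to 10 of 14. The 8 main classes held between 399 cells (KC-like) and 9292 cells (Cxcr6 T-like), and no class used a member as a marker. BG replicate 5 stood apart with 27873 barcodes against 10745 to 16432 in the other libraries, and Control replicate 1 held only 14 KC-like cells. At most 0.893% of the barcodes of a library also occurred in another library.

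The members took a very different part of the transcriptome in each class. They supplied 34.8% ± 1.37 of all UMIs in CD8 naive-like T cells (mean ± SD over n = 8 libraries, Control and BG together), 30.04% ± 1.70 in CD4 naive-like T cells, 23.5% ± 1.05 in Cxcr6 T-like cells and 23.4% ± 0.900 in B-like cells. NK-like cells (18.1% ± 1.37) and BMDM-like cells (17.4% ± 1.74) followed. The share was lower in KC-like cells (9.34% ± 0.953), in LSEC-like cells, the sinusoidal endothelium (7.14% ± 0.386), and in neutrophil-like cells (3.85% ± 1.01). With Control and BG together, the ranges of CD8 naive-like cells (32.3% to 36.3%) and CD4 naive-like cells (26.9% to 33.0%) met. Those of Cxcr6 T-like and B-like cells met as well, whereas KC-like cells (8.30% to 10.9%) stayed below BMDM-like cells (15.4% to 19.7%) in every library. The ranges of NK-like and BMDM-like cells met only with both groups together. In Control they were 16.6% to 18.0% and 18.3% to 19.7%, and in BG 18.1% to 20.3% and 15.4% to 16.8%. In Control alone the CD8 and CD4 naive-like ranges, 34.2% to 36.2% and 29.5% to 30.8%, did not meet.

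**Figure D1:**
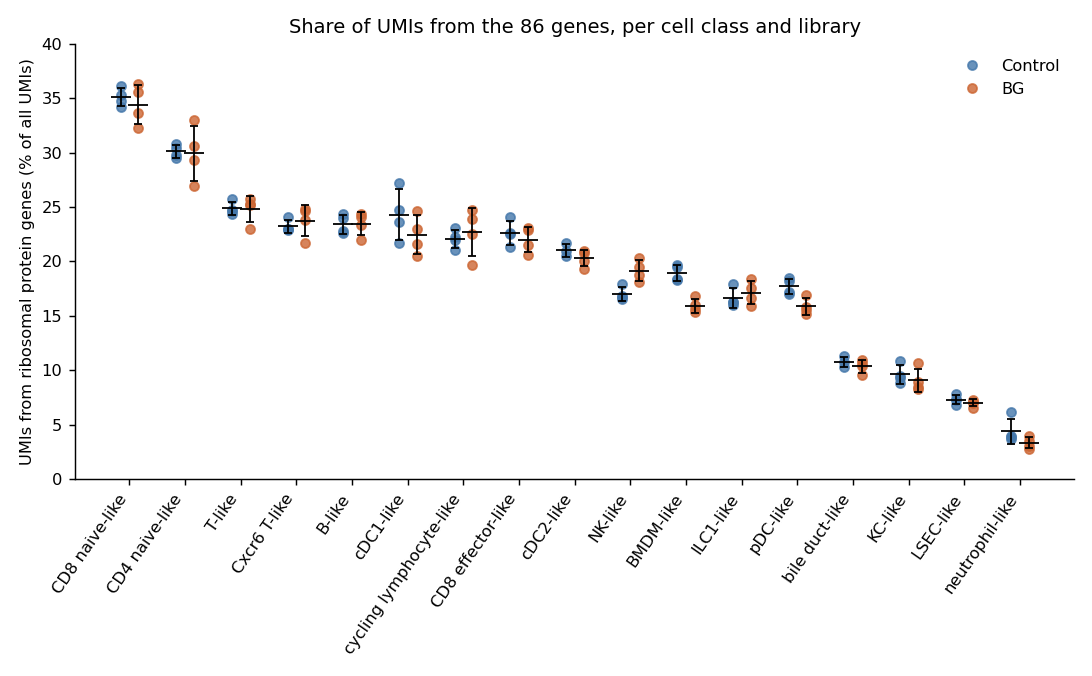
Share of all UMIs that came from the 86 ribosomal protein genes (vertical axis, %) in each gated cell class with at least 3 libraries per group. Points are libraries, blue for Control and orange for BG, and black bars give mean ± SD; Control and BG points do not overlap in NK-like, BMDM-like and pDC-like cells, where BG was higher in the first and lower in the other two.

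After BG the summed level of the members stood higher in NK-like cells and lower in BMDM-like cells. In NK-like cells the share was 16.7%, 18.0%, 16.6% and 16.8% in Control replicates 1 to 4 and 18.7%, 19.5%, 20.3% and 18.1% in BG replicates 5 to 8, so that the lowest BG library was above the highest Control library. In BMDM-like cells it was 18.3%, 19.5%, 18.4% and 19.7% in Control and 15.6%, 16.8%, 15.9% and 15.4% in BG, with no overlap in the other direction. In pDC-like cells, plasmacytoid dendritic cells, the Control libraries held 17.0% to 18.5% and the BG libraries 15.2% to 16.9%. The groups overlapped in each of the other main classes, where the means differed by 0.0266 percentage points in B-like cells and by 0.687 points, with BG lower, in CD8 naive-like cells. With no upper limit on detected genes and at most 10% mitochondrial UMIs, BG minus Control went from -0.69 to -2.32 points in CD8 naive-like cells and from -0.16 to 1.82 points in CD4 naive-like cells. No test was run on these sums.

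The question of which members responded to BG was then asked gene by gene, on UMIs summed over the cells of a class in each library, with edgeR's quasi-likelihood test and Benjamini-Hochberg adjustment over all genes tested in that class. Genes with an adjusted p below 0.05 were called, and levels are given as CPM, UMIs scaled to the same library total after TMM adjustment, which measures a gene against the other transcripts of the same class. In NK-like cells 11 of 83 tested members were called higher in BG and 0 were called lower, where 2.06% of all 5052 genes tested were called higher and 0.693% lower. In BMDM-like cells 10 of 83 were called lower and 0 higher, where 0.645% of 4032 genes were called lower and 1.86% higher. In Cxcr6 T-like cells 4 of 83 were called higher and 0 lower, against 3.75% and 0.823% of 9967 genes, a share of members near the background.

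**Figure D2:**
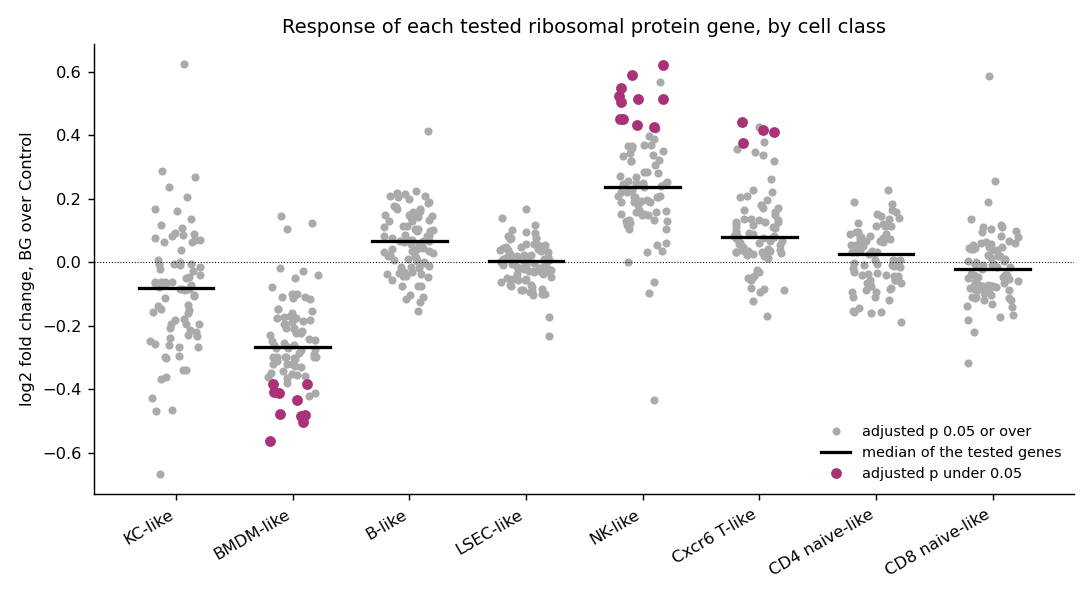
Log2 fold change of BG over Control (vertical axis) for each tested member in the 8 main cell classes, 1 point per gene. Purple points have an adjusted p under 0.05 and black lines mark the median, which was 0.24 in NK-like cells and -0.27 in BMDM-like cells.

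Natural killer (NK) cells are innate lymphocytes that are abundant in the mouse liver. In NK-like cells 80 of the 83 tested members had a log2 fold change above 0, and the median was 0.24, beside -0.00 over all genes tested. The groups did not overlap, with BG higher, for 25 members, against 4.65% of all genes tested, and the unadjusted p was under 0.05, with BG higher, for 43 members, against 8.85%. Small-subunit members (5 called of 33, median 0.21) and large-subunit members (6 of 49, median 0.25) were both represented.

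Rpl36a, a large-subunit protein gene on chromosome X (134585654 to 134588062, ENSMUSG00000079435), led the list. Its level in NK-like cells was 674, 801, 746 and 702 CPM in Control replicates 1 to 4 and 1117, 885, 1383 and 1087 CPM in BG replicates 5 to 8. Every BG library lay above every Control library, with the highest value in replicate 7, and the log2 fold change was 0.62 (SE 0.12, adjusted p = 0.00290, edgeR). Rpl36al, a paralog of Rpl36a on chromosome 12, had 643 ± 59.0 CPM in Control and 827 ± 94.2 CPM in BG (n = 4 each) and was not called (log2 fold change 0.37, adjusted p = 0.0772, edgeR).

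Rps26, a small-subunit protein near the exit of the mRNA channel (chromosome 10, 128624534 to 128626747), had 1421, 1574, 1356 and 1534 CPM in Control and 2003, 1984, 2571 and 2035 CPM in BG. The groups did not overlap, and 3 of the BG libraries lay close together below replicate 7. The log2 fold change was 0.55 (SE 0.11, adjusted p = 0.00455, edgeR).

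Rpl31, a large-subunit protein at the rim of the tunnel through which the new peptide leaves (chromosome 1, 39367842 to 39371911), had 455, 517, 485 and 532 CPM in Control and 664, 703, 776 and 686 CPM in BG. Again no library of one group reached the other, and the log2 fold change was 0.51 (SE 0.11, adjusted p = 0.00809, edgeR).

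Rps2, a small-subunit protein at the entry of the mRNA channel (chromosome 17, 24718116 to 24721929), had 1064, 1325, 1277 and 1471 CPM in Control and 2111, 1920.2, 2280.4 and 1408 CPM in BG. Here BG replicate 8 lay below the highest Control library, and the log2 fold change was 0.59 (SE 0.13, adjusted p = 0.00809, edgeR).

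Rps20 and Rps12 of the small subunit and Rpl35, Rpl28, Rpl41 and Rpl39 of the large subunit were also called higher in NK-like cells, and none of these 6 overlapped between the groups. Among them, Rpl35 and Rpl39 line or border the peptide exit tunnel and Rpl41 is among the smallest proteins known. Their log2 fold changes ran from 0.43 (Rps12) to 0.52 (Rpl35). Rps20 went from 2242 ± 169 to 3200 ± 522 CPM and Rpl35 from 904 ± 89.7 to 1295 ± 237 CPM (n = 4 each).

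**Figure D3:**
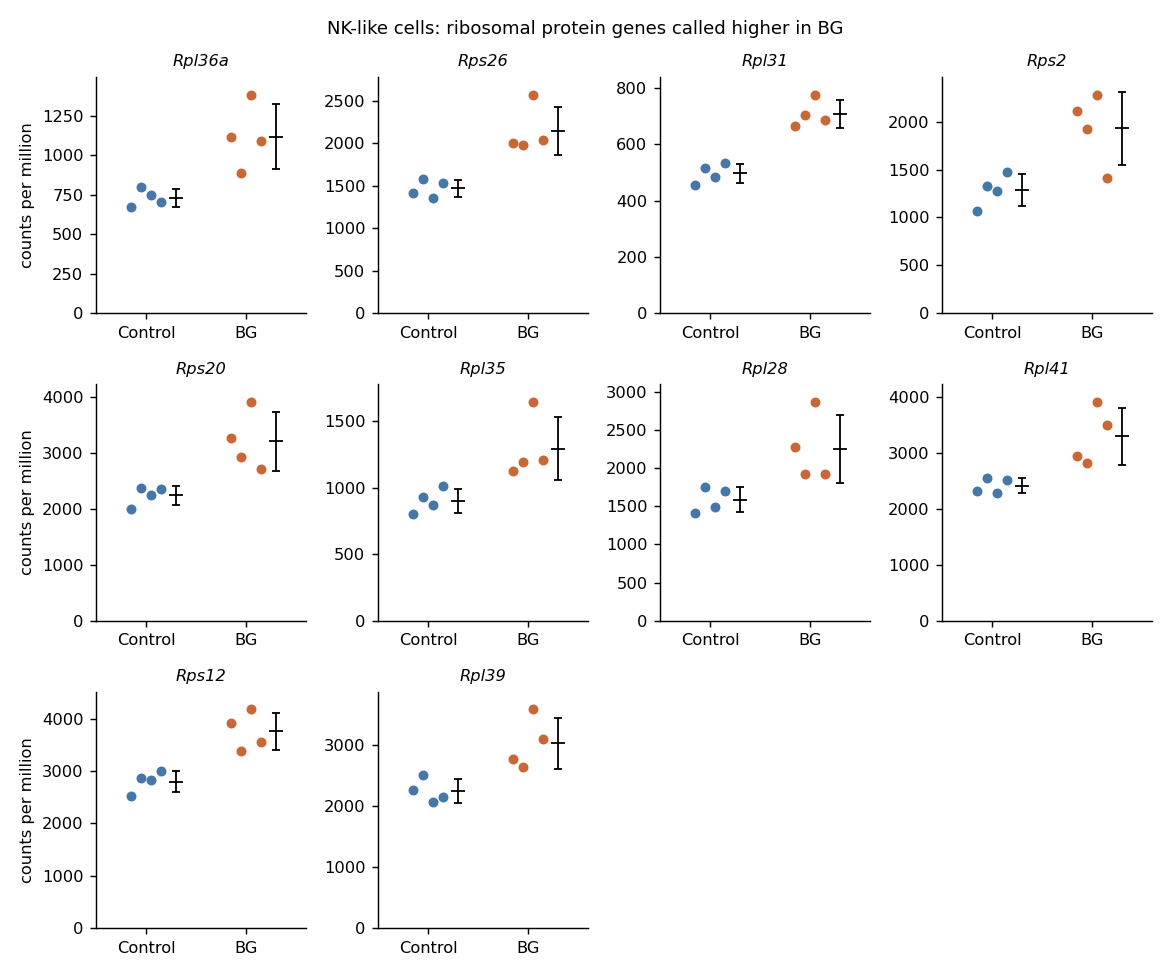
Level of 10 of the 11 members called higher in NK-like cells, in CPM (vertical axes, each from 0), by library. Blue points are Control replicates 1 to 4 and orange points BG replicates 5 to 8, with mean ± SD beside them; only Rps2 shows a BG library within the Control range.

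The stalk proteins, which recruit translation factors, were not called in NK-like cells although none of them overlapped between the groups. Rplp0 had 1628, 1910.1, 1879 and 1967 CPM in Control and 2674, 2132, 2787 and 2057 CPM in BG (log2 fold change 0.39, adjusted p = 0.0712, edgeR). Rplp1 went from 4077 ± 217 to 5199 ± 503 CPM and Rplp2 from 2061 ± 118 to 2569 ± 171 CPM. Rpsa, which also serves as a laminin receptor, and Rps6, the target of the Rps6 kinases, had log2 fold changes of 0.33 and 0.34 with adjusted p of 0.132 and 0.106 (edgeR).

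In the NK-like cells cycling cells, cycling markers, UMIs per cell and T cell markers were read beside the members. The ranges of each overlapped between Control and BG. Between 0% and 1.54% of the cells in Control libraries and between 0.769% and 7.80% in BG libraries held 4 or more of 12 cycling markers, with replicate 6 lowest in BG, and the summed cycling markers were 561 to 1044 CPM in Control libraries against 689 to 1561 CPM after BG. Without those cells 5 members were called higher, with a median log2 fold change of 0.18, and the share of UMIs was 16.7%, 17.9%, 16.4% and 16.9% in Control and 18.0%, 19.4%, 19.4% and 17.7% in BG, so that BG replicate 8 fell within the Control range. The median UMIs per cell were 1878 to 2666 in Control libraries against 2033 to 3007 after BG. When cells were thinned to 1000 UMIs and shallower cells were left out, 0 members were called by edgeR and the median was 0.16. Thinning leaves fewer counts for every gene. Shares of all genes called are not given for the alternatives in this paragraph, so their counts of calls cannot be set against a background. Left-out libraries gave 3 to 16 calls, and the lowest counts were 3 (Control replicate 1 left out), 4 (BG replicate 7), 6 (Control replicate 3) and 7 (BG replicate 5), and the median stayed between 0.17 and 0.29. Summed T cell markers were 805 to 1282 CPM in Control and 694 to 920 CPM in BG. The gate fixes Cd3e, Cd3d and Cd3g, which are among them, at 0, so the sum is no full measure of T cells in the gate. The part of these markers in the result was not tested.

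BMDM-like cells are monocytes and macrophages that derive from bone marrow. There the members moved the opposite way: 80 of 83 had a log2 fold change below 0, with a median of -0.27 beside -0.01 over all genes tested. For 43 members the groups did not overlap, with BG lower, against 3.40% of all genes, and 48 had an unadjusted p under 0.05 with BG lower, against 5.41%. The small-subunit median (-0.27, 4 called of 33) and the large-subunit median (-0.26, 6 called of 49) were alike.

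Rps3a1, a small-subunit protein gene on chromosome 3 (86137940 to 86142702, ENSMUSG00000028081), led these. Its level in BMDM-like cells was 2979, 3261, 3142 and 3376 CPM in Control replicates 1 to 4 and 2364, 2272, 2252 and 2112 CPM in BG replicates 5 to 8. All BG libraries lay below all Control libraries, and the level fell by 0.50 on the log2 scale (SE 0.10, adjusted p = 0.00455, edgeR).

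Rpl10, which joins the large subunit late and is needed before it can pair with the small subunit (chromosome X, 74270812 to 74273135), had 2021, 2199, 2176 and 2496 CPM in Control and 1525, 1732, 1556 and 1198 CPM in BG. It fell by 0.56 on the log2 scale (SE 0.12, adjusted p = 0.00830, edgeR), with BG replicate 8 lowest and no overlap. Rpl10 had the lowest log2 fold change of all members in these cells.

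Rpl15, Rpl14, Rps4x, Rpl8, Rpl3, Rps9 and Rpl7 were also called lower, and none overlapped between the groups. Rpl3 and Rpl8 lie close to the site of peptide bond formation, and Rps4x is carried on chromosome X. Rpl15 went from 2030.3 ± 226 to 1448 ± 90.3 CPM, Rps4x from 3185 ± 238 to 2359 ± 196 CPM and Rpl7 from 1983 ± 95.5 to 1519 ± 58.6 CPM (n = 4 each).

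**Figure D4:**
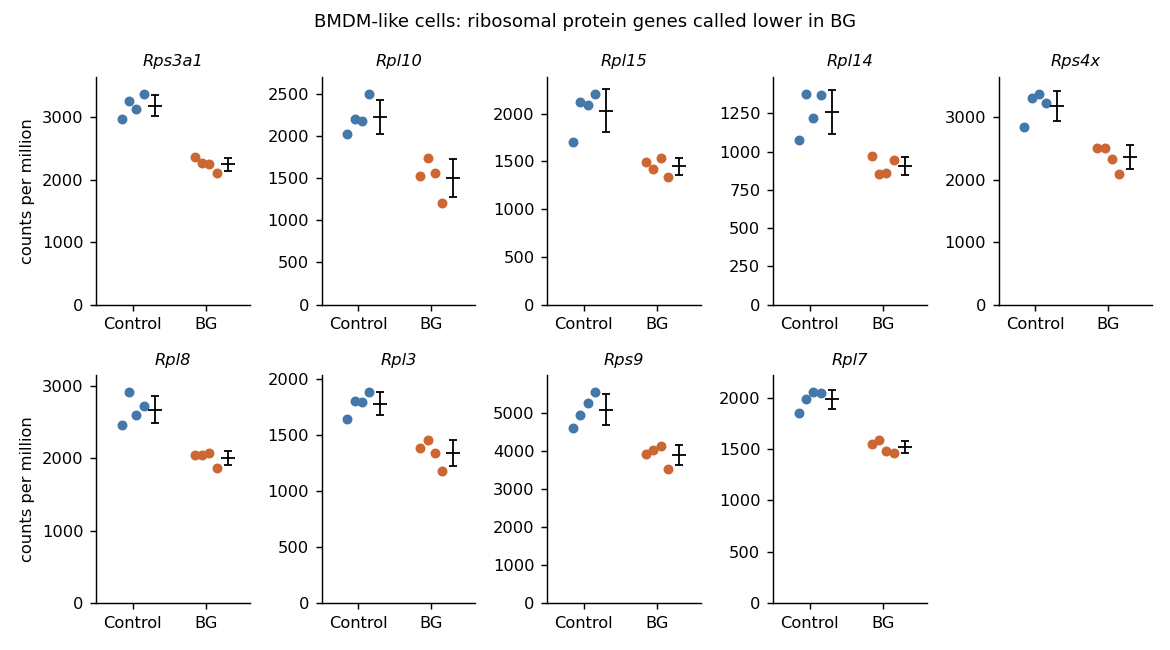
Level of 9 of the 10 members called lower in BMDM-like cells, in CPM (vertical axes, each from 0), by library. Blue points are Control replicates 1 to 4 and orange points BG replicates 5 to 8, with mean ± SD beside them; all BG libraries lie below all Control libraries in each panel.

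The stalk genes were not called in BMDM-like cells, where Rplp0 had 3240 ± 327 CPM in Control and 2539 ± 34.5 CPM in BG (log2 fold change -0.35, adjusted p = 0.0827, edgeR). Rplp1 and Rplp2 had log2 fold changes of -0.11 and -0.08. Rps6 had 1484, 1805, 1854 and 1840 CPM in Control and 1462, 1471, 1256 and 1273 CPM in BG, without overlap and with an adjusted p of 0.116 (edgeR). Rpsa overlapped between the groups.

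BMDM-like cells numbered 44 to 107 per library and hold both classical and patrolling monocytes. Summed classical monocyte markers were 2972 to 5441 CPM in Control, with Control replicate 1 highest and the other 3 at 3314 CPM or lower, and 4384 to 5390 CPM in BG. Patrolling markers were 410 to 532 CPM in Control and 401 to 548 CPM in BG. With cells that held a Cx3cr1, Ace or Treml4 UMI left out, 15 to 40 cells per library remained, 0 members were called by edgeR, and the median log2 fold change was -0.16. The share of UMIs from members was then 17.9%, 20.1%, 18.8% and 20.5% in Control and 18.2%, 17.1%, 16.7% and 15.9% in BG, so that the groups overlapped. Summed LSEC markers were 168 to 225 CPM in Control and 269 to 293 CPM in BG, without overlap, and summed cycling markers were 234 to 603 CPM and 432 to 862 CPM. Mitochondrial UMIs made up 10.3% to 13.9% in Control libraries against 10.8% to 17.7% after BG. At a limit of 10% 1 member was called, without BG replicate 5 for lack of cells, with a median of -0.27. Left-out libraries gave 3 to 20 calls, 20 without Control replicate 1 and 3 to 6 without any other library, and the median stayed between -0.29 and -0.23. Fits on fewer cells or libraries have less power for every gene. Shares of all genes called are not given for these alternatives, so their counts of calls cannot be set against a background. Whether the monocyte and LSEC marker transcripts came from the gated cells or from others was not tested. The part of all these measures in the result was not tested beyond these values.

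The difference between the responses of NK-like and BMDM-like cells was tested as an interaction of class and group with library as a block, a comparison added after the opposite calls had been seen. Of 83 members, 67 were called with the higher log2 fold change in NK-like cells and 0 with the lower, where 1.53% of 6386 genes were called higher and 0.736% lower. Members therefore made up 67 of the 98 genes called higher. The median difference over the members was 0.47 on the log2 scale, beside -0.00 over all genes. Rpl36a (difference 0.89, SE 0.14), Rpl28 (0.84, SE 0.11), Rpl15 (0.82, SE 0.11) and Rps2 (0.79, SE 0.12) differed most. The count was 20 without the block, 52 with DESeq2 and 57 to 69 with 1 library left out.

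**Figure D5:**
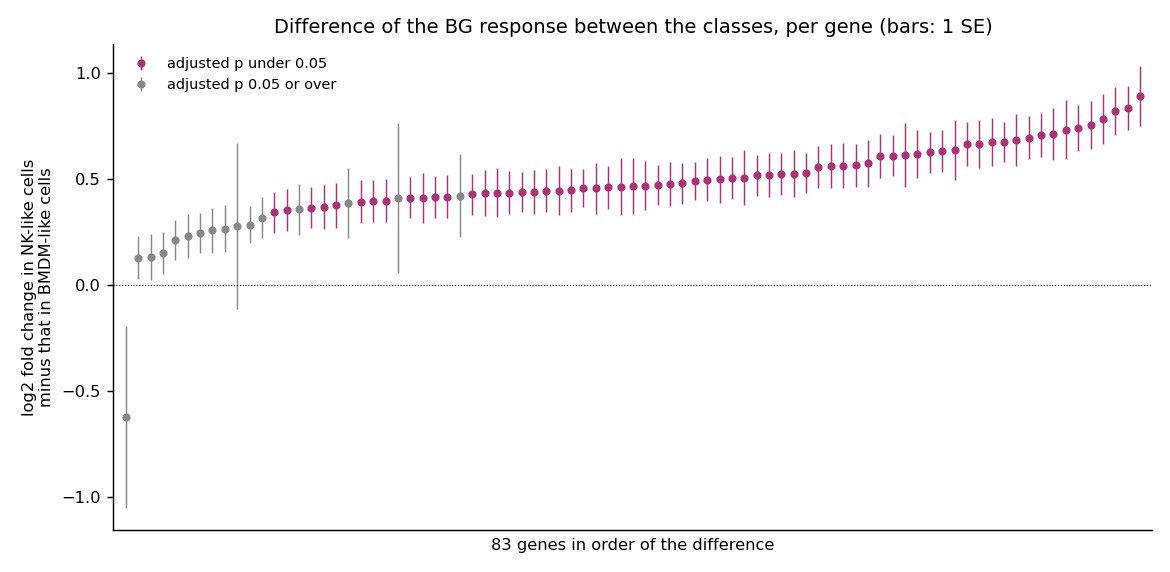
Log2 fold change (BG over Control) in NK-like cells minus that in BMDM-like cells (vertical axis), for each of 83 members in order of the difference. Bars are 1 SE and purple points have an adjusted p under 0.05; all points but that of Rps19bp1 lie above 0, and Rpl36a is highest at 0.89.

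Not all members took part. Rps27 and Rpl38 were among the 16 whose difference was not called, at 0.15 (SE 0.10) and 0.13 (SE 0.10). In NK-like cells Rps27, a small-subunit protein, had 3440, 3540, 2704 and 2881 CPM in Control and 2710, 2741, 3311 and 3251 CPM in BG, so that the groups overlapped widely (log2 fold change -0.06, SE 0.12). Rps19bp1, a member that is no ribosomal protein, had a difference of -0.62 (SE 0.43), with 42.9 ± 7.54 CPM in Control and 31.2 ± 4.52 CPM in BG in NK-like cells.

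Cxcr6 T-like cells, T cells with a Cxcr6 UMI and no Cd8a or Cd8b1 UMI, gave 4 calls, each of which was also called in NK-like cells. Rpl31 had 492, 515, 482 and 498 CPM in Control and 668, 646, 774 and 613 CPM in BG (log2 fold change 0.44, SE 0.09, adjusted p = 0.00530, edgeR). No BG library fell within its Control range, and the same held for Rpl41 (2438 ± 68.9 to 3163 ± 340 CPM) and Rps26 (1686 ± 130 to 2239 ± 306 CPM).

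In Cxcr6 T-like cells 0.126% to 2.29% of the cells in Control libraries and 2.21% to 7.98% in BG libraries held 4 or more cycling markers. Summed T cell markers were 5850 to 6795 CPM in Control and 5458 to 5782 CPM in BG, and classical monocyte markers 438 to 487 CPM and 545 to 797 CPM, neither with overlap. Without cycling cells 5 members were called. The part of the other measures was not tested, nor was whether the monocyte marker transcripts came from the T cells themselves.

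The median over the members in Cxcr6 T-like cells was 0.08, beside -0.01 over all genes, and 15 had an unadjusted p under 0.05, all higher, against 10.6% of all genes. Leaving out a library gave 1 to 14 calls, 14 without BG replicate 8, 1 without Control replicate 1, 3 or 4, and 2 without BG replicate 7. Over all T-like cells together Rpl31, Rpl41 and Rps27l were called higher, 3 of 84 members where 3.86% of 11076 genes were called higher and 0.93% lower. Cells are shared between T-like cells and their subsets, so these calls are not separate evidence.

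Naive-like T cells showed the contrast in level more than in response. Members were lower in Cxcr6 T-like than in CD4 naive-like cells of the same mice for 79 of 83 genes and higher for 0, where 10.3% of 9124 genes were called lower and 10.5% higher (edgeR, library as a block). The median difference was -0.49 on the log2 scale, and Rpl35 (-0.93, SE 0.05) and Rps20 (-0.88, SE 0.04) differed most. The 4 members without a call were Rpl38, Rps27l, Rpl7l1 and Rps19bp1, of which the last 3 had positive differences of 0.23, 0.45 and 0.67. When libraries were scaled by total UMIs alone, which moved the median of all genes from 0.02 to 0.19, 75 members were called lower and 3 higher. The median UMIs per cell ranged from 2354 to 3336 in CD4 naive-like cells and from 2507 to 4142 in Cxcr6 T-like cells.

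In CD4 naive-like cells 0 of 81 members were called by edgeR in either direction, as by DESeq2, with 1 unadjusted p under 0.05, a higher one (3.83% of all genes), and a median log2 fold change of 0.03, where 0.766% of 1959 genes were called higher and 0% lower. The BG libraries of this class were not alike. Cells with 4 or more cycling markers made up 0% in BG replicates 5 and 6 and 8.70% and 9.72% in replicates 7 and 8. In Control libraries they made up 1.85% to 3.80%. In CD8 naive-like cells 0 of 83 were called by either tool, with 2 unadjusted p under 0.05 in edgeR, 1 in each direction (5.27% and 4.2% of all genes), and 5 in DESeq2, and a median of -0.02, beside 0.684% of 4973 genes called higher and 0.261% lower. The difference of the response between Cxcr6 T-like and CD4 naive-like cells was called for Rps2 alone, at 0.39 (SE 0.09, adjusted p = 0.0224, edgeR), where 0.0877% of 9124 genes were called higher and 0.0658% lower. Rps2 went from 2505 ± 308 to 2564 ± 485 CPM in CD4 naive-like cells, and in Cxcr6 T-like cells it had a log2 fold change of 0.43 and was not called. Rps2 lost its call with DESeq2, without the block and without Control replicate 1 or 3 or BG replicate 5 or 7.

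Among macrophages, BMDM-like cells had the higher level of 78 of 83 members, and 0 were lower, where 20.8% of 4895 genes were called higher and 19.3% lower. The median difference was 0.95 on the log2 scale. Rpl18 (1.57, SE 0.11), Rplp0 (1.55, SE 0.11) and Rpl10 (1.49, SE 0.11) differed most. Rplp1 was not called, at -0.07 (SE 0.09), while its stalk partner Rplp0 was near the top. Rps27l, Rps27rt, Rpl7l1 and Rps19bp1 were also not called. KC-like cells were the shallower class, with a median of 1539 to 2501 UMIs per cell against 3400 to 5089 in BMDM-like cells.

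In KC-like cells 0 of 80 members were called by edgeR or DESeq2, with 7 and 6 unadjusted p under 0.05, of which 1 was higher and 6 were lower in edgeR (8.21% and 7.25% of all genes), where 0.959% of 1669 genes were called higher and 0.839% lower. The median log2 fold change was -0.08 and the median SE 0.19, against 0.11 in BMDM-like cells, so that changes of the size seen in BMDM-like cells were harder to detect. Rpl10 came closest, with 855, 1177, 1012 and 967 CPM in Control and 729, 661, 714 and 438 CPM in BG. All BG libraries lay below all Control libraries, at a log2 fold change of -0.67 (SE 0.20, adjusted p = 0.0880, edgeR). The test of the difference between the responses of BMDM-like and KC-like cells called 0 members by edgeR or DESeq2, where 0.0817% of 4895 genes were called higher and 0.0409% lower, and the median difference was -0.20.

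B-like and LSEC-like cells gave 0 calls among 83 members each, with edgeR and with DESeq2. In B-like cells 7 members had an unadjusted p under 0.05 in edgeR and 10 in DESeq2, all 7 with BG higher (5.57% of all genes), and the median was 0.07, beside 1.49% of 8311 genes called higher and 0.253% lower. In LSEC-like cells 0 members had an unadjusted p under 0.05 by either tool (4.86% of all genes higher and 3.57% lower in edgeR), the median was 0.00 and the log2 fold changes ran from -0.23 to 0.17, with 1.39% of 9293 genes called higher and 0.0968% lower. With the median SE of 0.10 in both classes, smaller changes of single members would not have been detected.

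Of the other 9 classes fitted, T-like cells were described above and the other 8 gave 0 calls. Shares of all genes called are given below for pDC-like and cDC1-like cells only, so 0 calls elsewhere cannot be set against them. In ILC1-like cells, with an Ncr1 UMI and no Cd3e, Cd3d or Cd3g UMI, 62 of 80 members had a log2 fold change above 0. The median there was 0.07, beside -0.01 over all genes tested, and Rps2 came closest to a call (adjusted p = 0.0541, edgeR). In pDC-like cells 69 of 83 members had a log2 fold change below 0 (median -0.13), the groups did not overlap for 19, with BG lower, against 2.27% of 5454 genes, and 15 had an unadjusted p under 0.05 with BG lower, against 3.76%, while 0.587% of genes were called higher and 0.0183% lower. Summed classical monocyte markers in pDC-like cells were 1536 to 1800 CPM in Control and 2936 to 4128 CPM in BG, without overlap. LSEC markers were 186 to 224 CPM and 230 to 275 CPM, also without overlap. Whether these transcripts came from the gated cells or from others was not tested, nor was their part in the result. In cDC1-like dendritic cells 73 of 81 were below 0 (median -0.14) with 5 without overlap, against 2.09% of genes, while 0.153% were called higher and 0.051% lower. Neutrophil-like cells, with 10 to 33 cells per library, had 44 testable members, of which 41 had a log2 fold change below 0. Their median was -0.44, beside -0.02 over all genes tested, with a median SE of 0.29.

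Paralogs gave members at very unequal levels. Rpl22l1, a paralog of Rpl22, was not called in NK-like cells (497 ± 67.8 to 632 ± 99.1 CPM), nor was Rpl22 (1266 ± 132 to 1498 ± 156 CPM). Rpl3l, Rpl10l and Rpl39l, which are expressed mainly in muscle or testis, held 23, 2 and 179 UMIs in all gated cells and could be tested in no main class. Rpl7l1 and Rps19bp1 were tested in 6 main classes, and 80 members in all 8.

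Rps27l, a paralog of Rps27 that is induced by p53, was the only member called in all T-like cells but not in NK-like or Cxcr6 T-like cells. It had 101, 123, 97.0 and 97.1 CPM in Control and 136, 120, 165 and 127 CPM in BG in T-like cells (log2 fold change 0.39, SE 0.10, adjusted p = 0.0452, edgeR), with BG replicate 6 below Control replicate 2. Its log2 fold change was 0.62 in KC-like, 0.59 in CD8 naive-like and 0.42 in B-like cells, none of which was called, and -0.12 in BMDM-like cells. Rps27 itself had log2 fold changes between -0.47 and 0.03 in the 8 main classes. Reads that fit both members of a close pair, or a processed copy elsewhere in the genome, could not be assigned with certainty, so the levels of such genes are uncertain.

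Genes that work with the members were read from lists of translation and ribosome genes. The 10 kinases with names like the members (Rps6ka, Rps6kb and relatives) were called in none of the main classes, with at most 6 tested. Of 59 ribosome biogenesis genes, 1 of 35 tested was called higher in NK-like cells and 3 of 59 in Cxcr6 T-like cells, near the 2.06% and 3.75% of all genes called higher there, and 0 were called lower in any main class.

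Npm1, a nucleolar chaperone of ribosome assembly, was called in both, from 685 ± 106 to 988 ± 141 CPM in NK-like cells (log2 fold change 0.54, adjusted p = 0.0113, edgeR) and from 817 ± 78.8 to 1069 ± 148 CPM in Cxcr6 T-like cells (0.39, adjusted p = 0.0409, edgeR). Pa2g4 (0.52) and Nop16 (0.58), both nucleolar, were called in Cxcr6 T-like cells. With each library left out in turn, Npm1 kept its call in 5 of 8 fits in NK-like cells and 1 of 8 in Cxcr6 T-like cells, Pa2g4 in 6 and Nop16 in 4. In NK-like cells the median of the list was 0.16 and in Cxcr6 T-like cells 0.25.

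Of 23 other genes with TOP messages, mostly translation factors, Nap1l1, a histone chaperone, was called higher in NK-like (0.69) and Cxcr6 T-like cells (0.52) and Gas5, a noncoding host gene of small nucleolar RNAs, in B-like cells (0.41). In BMDM-like cells the median of this list was -0.29, with 0 of 23 called, and in NK-like cells it was 0.17. Among initiation factors and mTORC1 genes only Eif2s1 (0.39, with an adjusted p just under 0.05) and Myc, which drives ribosome production (19.0 ± 3.09 to 28.2 ± 2.43 CPM, log2 fold change 0.57), were called, both in Cxcr6 T-like cells. Eif2s1 kept its call in 6 of 19 alternatives and in 2 of 8 fits with a library left out, and Myc in 15 and 6. The median of this initiation and mTORC1 list was 0.22 in NK-like cells and -0.05 in BMDM-like cells, with 0 called in either.

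The mitochondrial ribosome, which is built from a separate set of 78 genes, gave 1 call of 59 in NK-like cells and 4 of 78 in Cxcr6 T-like cells, all higher, again near the 2.06% and 3.75% of all genes. Mrpl33 was called in both (0.63 and 0.46) and Mrps18c (0.52) and Mrps12 (0.42), among others, in Cxcr6 T-like cells. The median of these mitochondrial genes was 0.25 in NK-like cells, beside 0.24 for the cytosolic members, and 0.15 in Cxcr6 T-like cells, beside 0.08. In BMDM-like cells it was 0.01 with 0 of 42 called, beside -0.27 for the cytosolic members.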

How the data were processed

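Single-cell 3′ libraries (10x Genomics, chemistry v3.1) of 8 mouse livers were read as raw UMI counts per gene and barcode, as the authors deposited them, made with Cell Ranger 6.1.2 (per the file headers) on the mm10 transcriptome with introns included. The annotation release is not given in the sources used here. Cells with 200 to 2500 detected genes and at most 30% mitochondrial UMIs were kept, as in the study. Cells were gated by at least 4 distinct markers of a class with a UMI (2 naive markers for naive T cells, 3 for Cxcr6 T-like cells, beside T cell markers), and 7296 cells that passed for several lineages and 2891 that passed for none were left out. No doublet caller was run. Counts were summed per class and library (at least 10 cells) and tested with edgeR 4.0.16 (TMM, filterByExpr, glmQLFTest, R 4.3.3), called at adjusted p under 0.05, since library is the replicate. Class pairs were compared with library as a block. Alternatives were DESeq2 1.42.0, other scalings, filters, gates and cell limits, and each library left out. The fit was tested on simulated counts with 200 changed genes. Reads under a class can come from its cells and from free RNA, which was not measured. Members made up 7.38% to 12.8% of non-mitochondrial UMIs in barcodes under 200 genes. Such barcodes are not empty droplets alone, with 6655329 UMIs in 2771 barcodes in Control replicate 1. Their member share is thus no measure of free RNA. Total UMIs in kept cells ranged from 12499993 to 21529646 per library. The named genes were, in each main class, up to 3 called members with the lowest adjusted p per direction, the stalk genes, Rpsa, Rps6, the paralog pairs and, per list, up to 3 called in most classes. Other called members were named after their values were seen. Results that need some genes are not reported here. Members and lists were chosen with earlier results of these data known. Labels give the diluent of BG in millilitres and the methods in microlitres.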

Additional observations from a re-analysis of the deposited data

Results flagged for a closer look

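In 4 of the 66 groups of libraries looked at, the highest or lowest library stood apart from the others of its group by Dixon's criterion, which chance alone gives in about 1 of 20 groups. The share of UMIs from members in Cxcr6 T-like cells was 24.1% in Control replicate 2, against 22.9% to 23.0% in the other Control libraries. Rpl8 in BMDM-like cells had 1862 CPM in BG replicate 8, against 2048 to 2070.4 CPM in the other BG libraries. In NK-like cells BG replicate 7 had 1647 CPM of Rpl35, against 1129 to 1213 CPM, and 2571 CPM of Rps26, against 1984 to 2035 CPM.

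The response to BG differed between NK-like and BMDM-like cells for 67 members and between Cxcr6 T-like and CD4 naive-like cells for 1 member, Rps2, by the test of the difference itself. The pair of NK-like and BMDM-like cells was chosen after their opposite calls had been seen, and its count was 20 without the block.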

How the results depend on the processing

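No paired analysis was possible because Control and BG share no replicate number. Class pairs within a mouse used library as the block. No called gene reversed its direction, while the share difference changed sign under some alternatives in B-like, CD4 naive-like and CD8 naive-like cells. In BMDM-like cells 10 members were called lower, and 2 were with a log2 limit of 0.5, 17 with scaling by all other genes, 6 without the count filter, 1 at 10% mitochondrial UMIs, 4 with 1 marker fewer, 6 after thinning and 0 without cells holding Cx3cr1, Ace or Treml4. In NK-like cells 11 were called higher, and 7 were with the log2 limit, 17 with DESeq2, 4 at 10% mitochondrial UMIs, 5 without cycling cells and 0 after thinning. In Cxcr6 T-like cells 4 became 0 with the log2 limit, 10 with DESeq2 and 10 without the filter. Leaving out 1 library gave 3 to 20 calls in BMDM-like, 3 to 16 in NK-like, 1 to 14 in Cxcr6 T-like, 0 to 1 in B-like and 0 to 1 in CD8 naive-like cells. Shares of all genes called under these alternatives are not given, so a change in a count may not be particular to the members.

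Between Cxcr6 T-like and CD4 naive-like cells, 0 members were higher in level, against 3 with total UMIs, 1 without the filter and 0 to 1 with a library left out. The difference of the BG response was called for 1 member there, against 0 with DESeq2, 2 without the filter, 0 with no replicate block and 0 to 3 with a library left out. For NK-like against BMDM-like cells 67 became 20 with no replicate block. With no upper limit on genes and at most 10% mitochondrial UMIs, the share of UMIs differed (BG minus Control) by 1.82 points in CD4 naive-like cells, against -0.16, and by -2.32 points in CD8 naive-like cells, against -0.69. The cause of these shifts was not tested. The 10% limit left too few KC-like cells for a fit. Thinning, the cells without Cx3cr1, Ace or Treml4 and the NK-like against BMDM-like fits were added after the data were seen.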
